A study of Homo sapiens with 9 samples.

Results

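Matrix proteases, their tissue inhibitors and lysyl oxidases were described in Rh30 cells as 10 genes: the matrix metalloproteinases MMP2, MMP14, MMP15 and MMP16, the protease ADAMTS1, the inhibitors TIMP1, TIMP2 and TIMP3, and the cross-linking enzymes LOX and LOXL2. Members were taken by gene symbol. Every probe set (a group of array probes for 1 transcript) that the array annotation ties to 1 symbol, that of a listed gene, was kept. This gave 31 of 54613 probe sets and 10 of 19775 genes, with 1 to 5 probe sets per gene, and no probe set shared with another gene names a member. Of the 31, 22 lay at or above the median brightness of all probe sets, a mean log2 value of 4.84, and 9 lay below it.

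Rh30 is a single human line of fusion-positive rhabdomyosarcoma (FP-RMS), a muscle-like childhood tumor, and all 9 arrays carry its PAX3-FOXO1 fusion. Xenografts were tumors raised in SCID/beige mice, which lack functional lymphocytes. For the array study the methods describe adherent cells injected into the gastrocnemius muscle, and the paper's results also give adherent cultures as the origin. The labels instead name the flank and Matrigel, a matrix preparation, and adherent cells or spheres as the cells implanted. The methods describe that route for a separate dilution assay. By the paper's account the tumors on these arrays thus came from adherent cells, though the labels differ. Spheres were floating aggregates collected after 48 h in serum-free Neurobasal medium with 50 µg/ml insulin, 40 ng/ml EGF, 80 ng/ml bFGF and 1X B27. Adherent cells were monolayers in RPMI with serum. Each group had 3 arrays, biological triplicates per the methods. Growth form and medium differ together between spheres and adherent cells, so their parts cannot be told apart.

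Cells reshape the matrix around them by cutting it and by cross-linking it. The membrane-bound protease MMP14 activates the collagen-degrading enzyme MMP2 at the cell surface with TIMP2 as the bridge, so TIMP2 is both an inhibitor of MMP2 and a part of its activation. TIMP3 stays bound to the matrix and also inhibits ADAMTS proteases, while LOX and LOXL2 oxidise lysines in collagen and elastin, the step that starts cross-linking.

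Spheres had higher TIMP3 and LOX than adherent cells, by 3.59-fold (95% interval 2.88 to 4.47) and 7.24-fold (5.28 to 9.94) at the brightest probe set of each gene. At their brightest probe sets TIMP2 fell to 0.371-fold of the adherent level in xenografts and 0.385-fold in spheres, and LOXL2 to 0.277-fold and 0.452-fold. The TIMP2 probe set 203167_at did not follow, and the other LOXL2 probe sets were dim and not called. Xenografts did not share the sphere levels of TIMP3 and LOX, and were at 0.376-fold and 0.0664-fold of them. LOX in xenografts lay below the median brightness of all probe sets, so the size of its fold is less certain. ADAMTS1 and MMP16 fell in xenografts, and TIMP1 and MMP2 did not pass the test in any comparison. A change was called at an adjusted p under 0.05 in limma, over all 54613 probe sets. In bulk RNA, fewer cells that express a gene and less RNA per cell cannot be told apart.

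**Figure D1:**
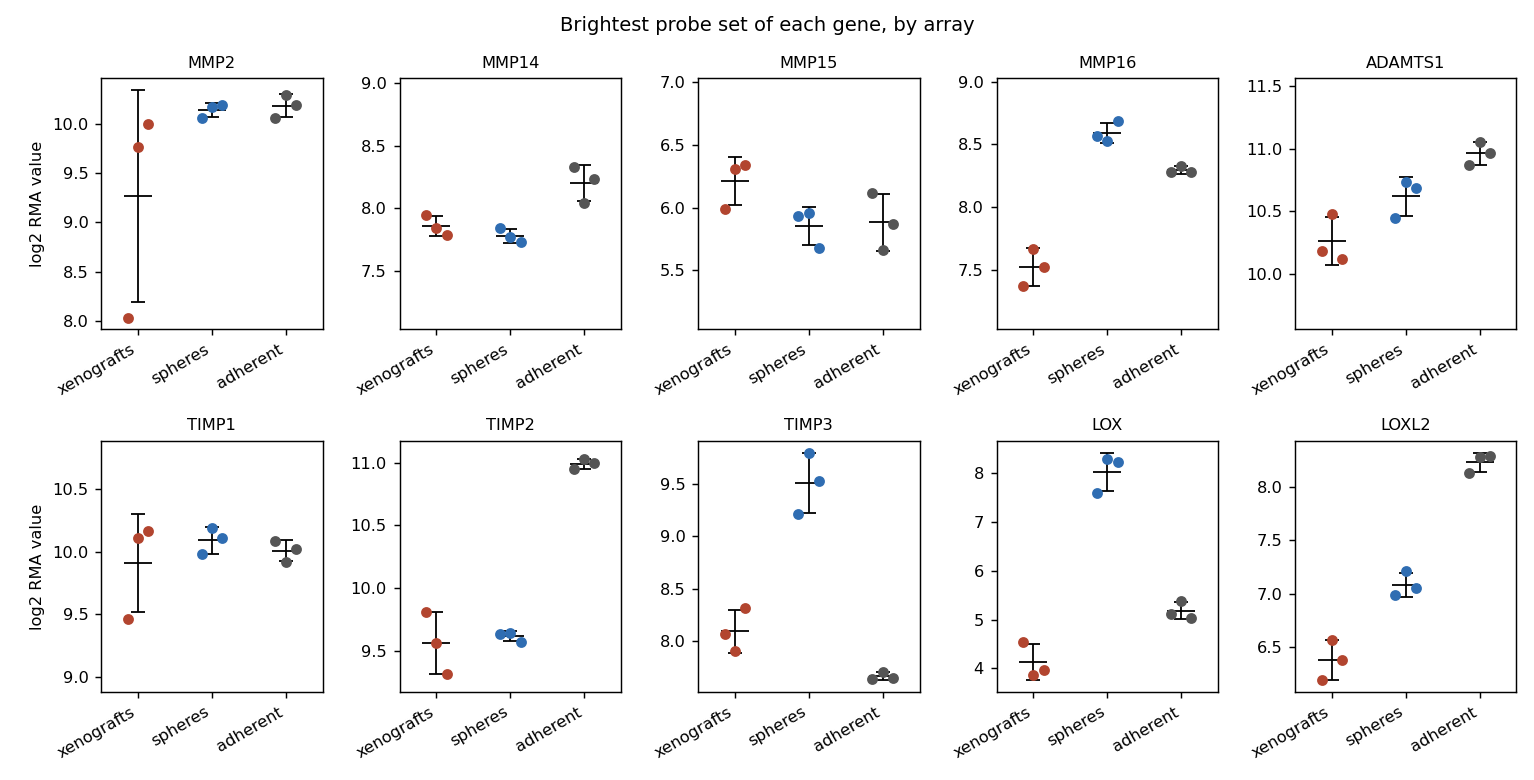
Log2 RMA value (y axis, scaled separately in each panel) of the brightest probe set of each of the 10 genes on the 3 xenograft, 3 sphere and 3 adherent arrays, with the mean and SD as bars. TIMP3 and LOX were highest on the sphere arrays, TIMP2 and LOXL2 were highest on the adherent arrays, and 1 xenograft array, at 8.03, lay below the other arrays for MMP2.

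Between xenografts and adherent cells, 11 of the 31 probe sets were called, 3 higher and 8 lower, or 35.5%, against 23.0% of all probe sets (9.78% higher and 13.2% lower). At 16 of the 31 the 2 sets of arrays had separate ranges, against 38.5% of all probe sets. The median log2 change was -0.11 over the members and 0.07 over all probe sets. Counted at the brightest probe set of each gene, 6 of 10 genes fell and 0 rose, where 26.9% of all genes were called (12.6% higher and 14.3% lower).

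Between spheres and adherent cells, 14 of the 31 were called, 8 higher and 6 lower, or 45.2%, against 26.0% of all probe sets (13.3% higher and 12.6% lower), and 19 did not overlap, against 41.6%. The median was -0.02 over the members and -0.02 over all probe sets. At the brightest probe sets 3 genes rose (MMP16, TIMP3 and LOX) and 3 fell (MMP14, TIMP2 and LOXL2), with 29.8% of all genes called (13.5% higher and 16.3% lower). Between xenografts and spheres, 14 were called, 2 higher and 12 lower, or 45.2%, near the 39.1% of all probe sets (20.6% higher and 18.5% lower), and 15 did not overlap, against 47.4%. The median there was -0.14 over the members and 0.10 over all probe sets. At the brightest probe sets 5 genes were lower in xenografts (MMP16, ADAMTS1, TIMP3, LOX and LOXL2) and 0 higher, where 44.0% of all genes were called (25.7% higher and 18.3% lower). Each pair of comparisons shares 1 group of arrays, so the 3 counts are not independent. Several probe sets of the same gene are not independent either. In spheres against adherent cells the 8 higher calls were all the probe sets of TIMP3 and LOX and the brightest of MMP16. The 6 lower calls were at probe sets of MMP14, TIMP2 and LOXL2. The members were chosen with earlier results of these data known, so the counts describe them and are no test of the group. Of the 39 calls in all, 3 compared groups that both had means below 4.84: LOX at 213640_s_at in spheres against adherent cells and at 204298_s_at in xenografts against adherent cells, and MMP16 at 208167_s_at in xenografts against spheres. A further 6 calls had 1 group below it, 4 of them of LOX.

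**Figure D2:**
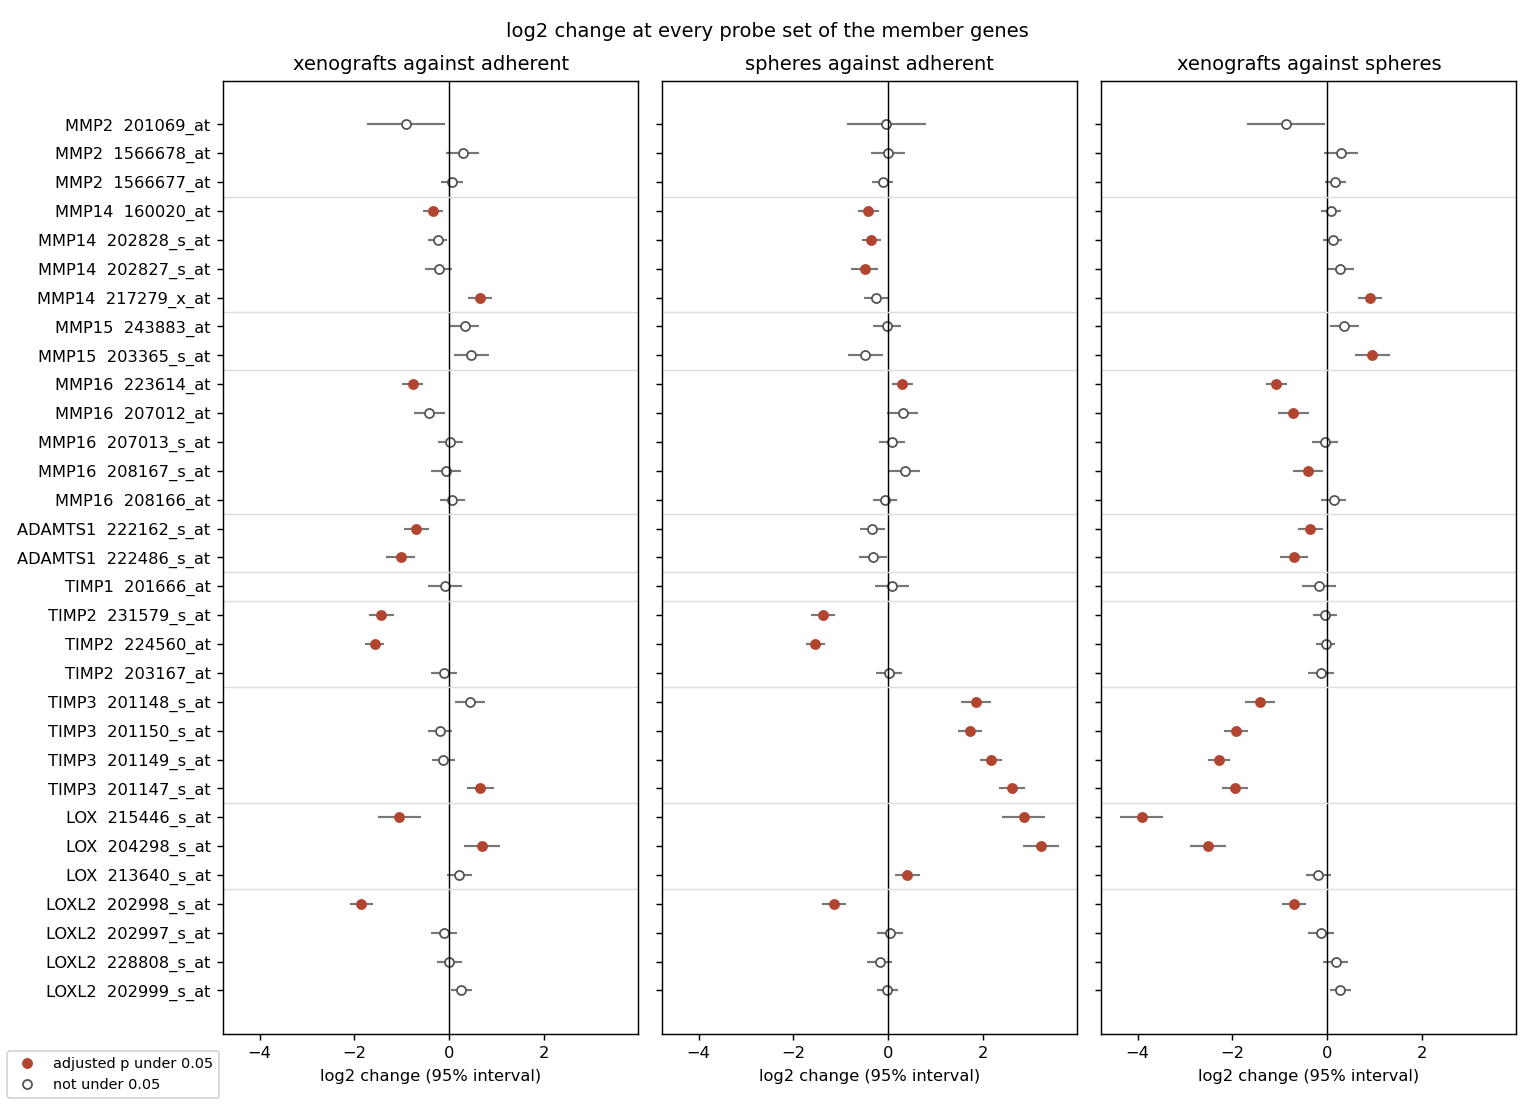
Log2 change (x axis) with its 95% interval at each of the 31 probe sets (rows) in the 3 comparisons (panels), filled where the adjusted p was under 0.05. The 4 TIMP3 probe sets lie right of 0 in spheres against adherent cells and left of 0 in xenografts against spheres, and the probe sets of MMP14, LOX, TIMP2 and LOXL2 do not all move together.

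Xenograft replicate 1 stood apart from the other xenograft arrays at several matrix genes. For LUM, a collagen-binding proteoglycan of fibroblasts, it read 8.31, against 6.47 and 6.56 on the other xenograft arrays, while the sphere arrays read 3.50, 4.50 and 4.31 and the adherent arrays 4.22, 4.53 and 4.14. For POSTN, a matrix protein of activated fibroblasts, it read 6.23, against 3.27 and 3.52. The fibroblast markers were divided on that array. COL1A2, COL3A1, FAP and ACTA2 were also highest on it among the xenograft arrays. PDGFRA, PDGFRB and COL1A1 were lowest on it, and DCN and THY1 lay between the other xenograft arrays. Of 11 fibroblast markers, 5 were higher and 1 lower in xenografts than in adherent cells, and their mean level ran from 6.11 to 6.69 over the xenograft arrays, 5.57 to 5.70 over the sphere arrays and 5.62 to 5.71 over the adherent arrays. Of 8 endothelial markers 1 was higher in xenografts than in adherent cells, and of 7 markers of macrophages and leukocytes 1 was, near the 12.6% of all genes called higher. Of 10 markers of adult skeletal muscle, 4 were higher and 1 lower, where 12.6% of all genes were higher and 14.3% lower. Among these the skeletal actin ACTA1 read 8.40, 8.48 and 8.26 in xenografts, 3.76, 4.20 and 4.51 in spheres and 5.19, 5.14 and 5.14 in adherent cells. MYH4, ATP2A1 and MYH1 were also higher in xenografts than in adherent cells. MB was lower, at 0.504-fold (limma adjusted p = 0.0111), and TNNT3, MYH2, CKM, PYGM and CASQ1 were not called. The probes are of human sequence, so mouse RNA enters only where it cross-hybridises. The part of host or differentiating cells in the xenograft values below was not tested. Of 9 markers of the line itself, 1 was higher and 4 lower in xenografts and 0 were higher and 6 lower in spheres, both against adherent cells, with medians of -0.26 and -0.53. In spheres 13.5% of all genes were higher and 16.3% lower, and the all-gene medians were 0.08 in xenografts and -0.04 in spheres. They were present throughout, with a mean level of 9.53 to 9.58 in xenografts, 9.20 to 9.24 in spheres and 9.71 to 9.82 in adherent cells.

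MMP2 (chr16:55478830-55506691, GRCh38.p14), which degrades basement membrane and denatured collagen, had a bright probe set, 201069_at. It read 8.03, 9.77 and 10.003 in xenografts, 10.06, 10.17 and 10.19 in spheres and 10.06, 10.30 and 10.19 in adherent cells. Every xenograft array lay below every sphere and adherent array, by a wide margin only for replicate 1. The log2 change in xenografts against adherent cells was -0.91 ± 0.38 (SE, limma adjusted p = 0.105), and without xenograft replicate 1 it was -0.30 (adjusted p = 0.0757). Without xenograft replicate 3 it was -1.28 and passed the test (adjusted p = 0.0335), so the call rests on which tumor is included. Likewise in xenografts against spheres it was -0.87 (adjusted p = 0.0877), -0.25 without replicate 1 (adjusted p = 0.0929) and -1.24 without replicate 3 (adjusted p = 0.0246). Spheres and adherent cells differed by -0.04, with a 95% interval of -0.87 to 0.79. That interval pools the spread of all groups, and the SD was 1.08 in xenografts, 0.07 in spheres and 0.12 in adherent cells. The other probe sets of MMP2 were dim and not called, though 1566678_at passed in xenografts against spheres without xenograft replicate 3 (log2 change 0.44, adjusted p = 0.0476).

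MMP14 (chr14:22836585-22847758), the main membrane-type collagenase and activator of MMP2, was lower outside the monolayer at its brightest probe set, 160020_at. It read 7.95, 7.84 and 7.78 in xenografts, 7.84, 7.77 and 7.73 in spheres and 8.33, 8.04 and 8.23 in adherent cells, so the adherent arrays lay above all the others. The level in spheres was 0.747-fold that in adherent cells (adjusted p = 0.00765). A pair of further probe sets also fell in spheres, 202828_s_at by 0.36 on the log2 scale (adjusted p = 0.0143) and 202827_s_at by 0.50 (adjusted p = 0.0112). The first of these lost the call without sphere replicate 1 (adjusted p = 0.0576), adherent replicate 1 (0.0535) or adherent replicate 3 (0.0584), and the second without adherent replicate 3 (0.0588).

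In xenografts against adherent cells 3 of the 4 MMP14 probe sets lay lower, 1 of them called, and 1 rose. At 160020_at the level was 0.788-fold that of adherent cells (adjusted p = 0.0282), a call lost without xenograft replicate 2 (0.0617) or 3 (0.0708) or adherent replicate 1 (0.109) or 3 (0.0927). The log2 changes at 202828_s_at and 202827_s_at were -0.24 (adjusted p = 0.0839) and -0.23 (adjusted p = 0.220). The probe set 217279_x_at, whose suffix marks probes that may match other transcripts, read 5.83, 5.52 and 5.51 in xenografts, 4.86, 4.66 and 4.62 in spheres and 5.08, 4.90 and 4.95 in adherent cells. All xenograft arrays were high there, 1.56-fold over adherent cells (adjusted p = 0.00192) and 1.87-fold over spheres (adjusted p = 8.05e-05). Averaged over the 4 probe sets, the log2 change was -0.04 (adjusted p = 0.686).

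MMP15 (chr16:58025754-58046901), another membrane-type protease, was called in 1 comparison. Probe set 203365_s_at read 6.09, 5.63 and 6.22 in xenografts, 5.21, 4.69 and 5.19 in spheres and 5.49, 5.59 and 5.49 in adherent cells. The groups formed 3 separate ranges, with the xenografts highest and the spheres lowest. Xenografts were 1.93-fold over spheres (adjusted p = 9.36e-04), while the steps to adherent cells missed the threshold, 0.46 on the log2 scale in xenografts (adjusted p = 0.0700) and -0.49 in spheres (adjusted p = 0.0513). The first passed without xenograft replicate 2 (0.0150) or sphere replicate 2 (0.0420), and the second without sphere replicate 1 (0.0454) or xenograft replicate 2 (0.0221) or 3 (0.0405). The brighter 243883_at gave 0.36 between xenografts and spheres (adjusted p = 0.0614), and without xenograft replicate 1 it gave 0.47 (adjusted p = 0.0218). In xenografts against adherent cells that probe set gave 0.33 (adjusted p = 0.111), and 0.44 without xenograft replicate 1 (adjusted p = 0.0409).

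MMP16 (chr8:88032011-88327483), a membrane-type protease that also activates MMP2, was lowest in xenografts. At 223614_at it read 7.37, 7.67 and 7.52 in xenografts, 8.56, 8.53 and 8.68 in spheres and 8.28, 8.33 and 8.28 in adherent cells, with no overlap between any of the groups. Xenografts were at 0.584-fold the adherent level (95% interval 0.503 to 0.679, adjusted p = 2.35e-04) and 0.475-fold the sphere level (0.409 to 0.552, adjusted p = 8.18e-06). Spheres were 1.23-fold over adherent cells (adjusted p = 0.0446), a call lost when any 1 of the 6 arrays of those groups was left out (adjusted p = 0.0675 to 0.165). A further probe set, 207012_at, was 0.608-fold in xenografts against spheres (adjusted p = 0.00282), and gave -0.42 in xenografts against adherent cells (adjusted p = 0.0655), which passed without xenograft replicate 2 (-0.60, adjusted p = 0.00562). The dim 208167_s_at fell by 0.41 in xenografts against spheres (adjusted p = 0.0456) with overlapping arrays, and of the fits that left out 1 array it was called in those without xenograft replicate 3 or sphere replicate 2 and lost in all others (adjusted p up to 0.188). Without sphere replicate 2 it also passed in spheres against adherent cells (0.47, adjusted p = 0.0457). The remaining probe sets of MMP16 were not called.

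ADAMTS1 (chr21:26835755-26845409), which cleaves the proteoglycans versican and aggrecan, was graded over the groups. Its brightest probe set, 222162_s_at, read 10.18, 10.48 and 10.12 in xenografts, 10.44, 10.73 and 10.69 in spheres and 10.87, 11.05 and 10.96 in adherent cells. Adherent arrays lay above all others, while 1 xenograft and 1 sphere array overlapped. Xenografts were at 0.615-fold the adherent level (adjusted p = 0.00156). Spheres were at 0.790-fold with an adjusted p of 0.0583, which passed without xenograft replicate 2 (0.0331) or 3 (0.0480). The step between xenografts and spheres was 0.779-fold (adjusted p = 0.0334), a call lost without xenograft replicate 1 (0.0776) or 3 (0.103) or sphere replicate 2 (0.113) or 3 (0.108).

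The second ADAMTS1 probe set, 222486_s_at, had the same order of group means. It read 6.24, 6.73 and 6.38 in xenografts, 6.92, 7.26 and 7.28 in spheres and 7.40, 7.55 and 7.48 in adherent cells, without overlap. Xenografts were at 0.491-fold the adherent level (adjusted p = 3.44e-04) and 0.615-fold the sphere level (adjusted p = 0.00200), and spheres against adherent cells gave -0.32 (adjusted p = 0.120).

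The 3 inhibitors behaved differently from each other. TIMP1 (chrX:47582436-47586789), a secreted inhibitor with a single probe set, read 9.46, 10.11 and 10.17 in xenografts, 9.98, 10.19 and 10.11 in spheres and 10.08, 9.92 and 10.03 in adherent cells. All groups overlapped, and the lowest value came from xenograft replicate 1, as for MMP2. The log2 change was -0.10 in xenografts (95% interval -0.45 to 0.26, adjusted p = 0.696) and 0.08 in spheres (-0.27 to 0.44, adjusted p = 0.790), both against adherent cells. Without xenograft replicate 1 the xenograft values turned positive, 0.13 against adherent cells (adjusted p = 0.378) and 0.05 against spheres (adjusted p = 0.741).

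TIMP2 (chr17:78852977-78925387), the inhibitor that also bridges MMP14 and MMP2, was lower in both xenografts and spheres. At 231579_s_at it read 9.81, 9.56 and 9.31 in xenografts, 9.63, 9.64 and 9.57 in spheres and 10.95, 11.02 and 11.00 in adherent cells. Xenografts were at 0.371-fold the adherent level (95% interval 0.310 to 0.443, adjusted p = 1.10e-05) and spheres at 0.385-fold (0.322 to 0.460, adjusted p = 5.78e-06). The adherent arrays stood more than 1 log2 unit above every other array.

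Probe set 224560_at of TIMP2 read 8.45, 8.30 and 8.23 in xenografts, 8.42, 8.29 and 8.36 in spheres and 9.85, 9.97 and 9.89 in adherent cells. It fell to 0.336-fold in xenografts (adjusted p = 1.26e-06) and 0.344-fold in spheres (adjusted p = 6.09e-07) of the adherent level. Between xenografts and spheres the log2 difference was -0.06 at 231579_s_at, with a 95% interval of -0.31 to 0.20, and -0.03 at 224560_at, with an interval of -0.24 to 0.17. The third probe set, 203167_at, did not follow. It read 7.05, 6.74 and 7.24 in xenografts, 7.08, 7.30 and 7.04 in spheres and 7.11, 7.11 and 7.14 in adherent cells, and gave -0.11 in xenografts (adjusted p = 0.544) and 0.02 in spheres (adjusted p = 0.943).

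TIMP3 (chr22:32801705-32863041), the matrix-bound inhibitor, was highest in spheres at all 4 of its probe sets. At 201148_s_at it read 8.07, 7.91 and 8.32 in xenografts, 9.21, 9.79 and 9.53 in spheres and 7.64, 7.71 and 7.65 in adherent cells. The sphere arrays lay apart at the top, and the xenograft arrays lay narrowly above the adherent ones. Spheres were 3.59-fold over adherent cells (adjusted p = 3.37e-06), and the other probe sets gave 3.31-fold, 4.49-fold and 6.09-fold (adjusted p at most 1.12e-06). Xenografts were at 0.376-fold the sphere level at 201148_s_at (adjusted p = 1.77e-05) and at 0.264-fold, 0.205-fold and 0.259-fold at the others.

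For TIMP3 in xenografts against adherent cells the probe sets were divided. Probe set 201147_s_at read 6.93, 7.08 and 7.07 in xenografts, 8.72, 9.16 and 9.05 in spheres and 6.21, 6.51 and 6.39 in adherent cells, a rise of 1.58-fold in xenografts over adherent cells (adjusted p = 0.00313). At 201148_s_at the ratio was 1.35-fold (adjusted p = 0.0525), which passed without xenograft replicate 2 (0.0371) or sphere replicate 1 (0.0280) or 2 (0.0341). At 201150_s_at and 201149_s_at it was 0.873-fold (adjusted p = 0.241) and 0.918-fold (adjusted p = 0.435). TIMP3 lies within the gene SYN3, whose single probe set gave 0.25 in spheres against adherent cells (adjusted p = 0.0871).

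**Figure D3:**
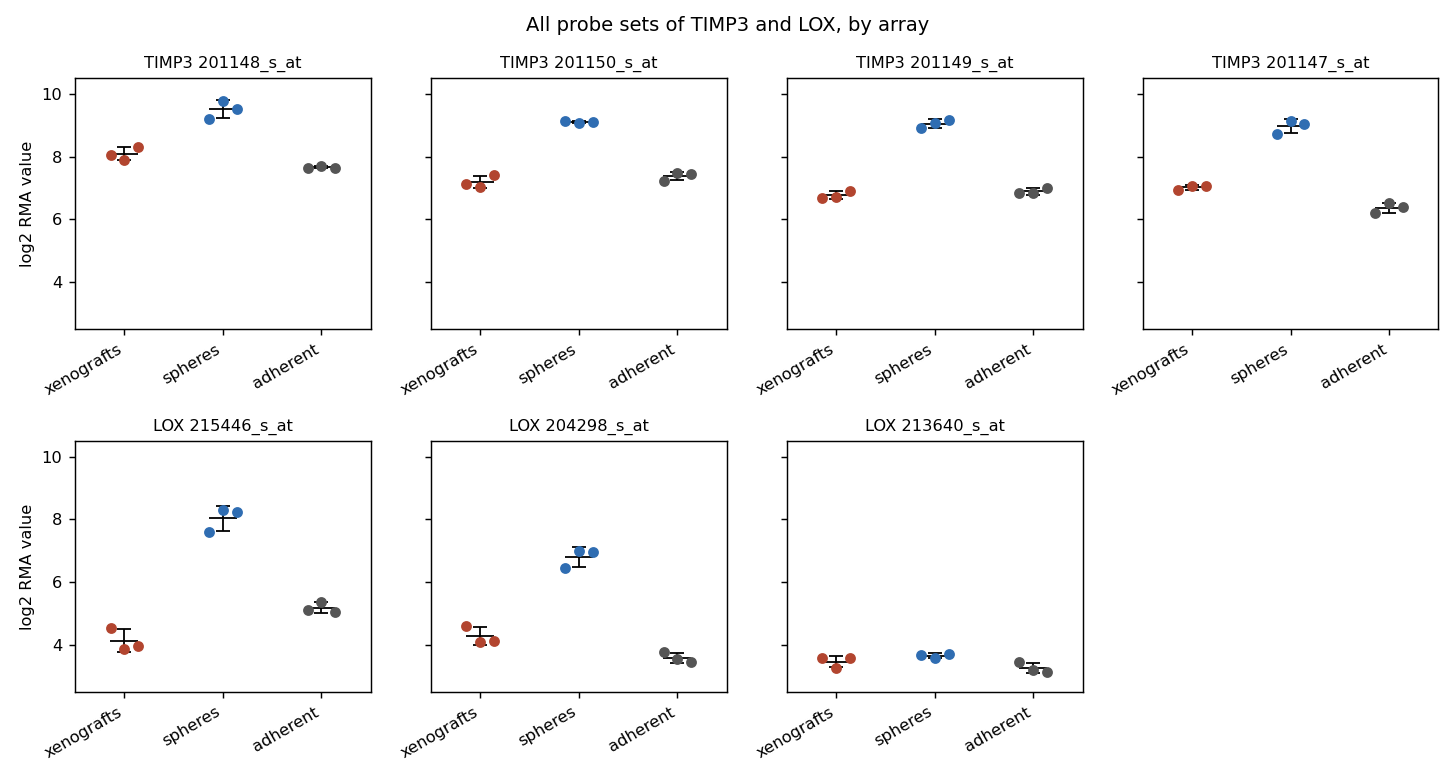
Log2 RMA value (y axis, shared by all panels) of each probe set of TIMP3 (top row, 4 probe sets) and LOX (bottom row, 3 probe sets) on the 3 xenograft, 3 sphere and 3 adherent arrays, with the mean and SD as bars. The sphere arrays were highest at all 4 TIMP3 probe sets and at the brighter pair of LOX probe sets, where xenografts fell below adherent cells at 215446_s_at (3.86 to 4.55 against 5.04 to 5.38) and lay above them at 204298_s_at (4.10 to 4.61 against 3.46 to 3.76).

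LOX (chr5:122063195-122078259), the founding lysyl oxidase, showed the largest change of the 10 genes. At 215446_s_at it read 4.55, 3.86 and 3.96 in xenografts, 7.59, 8.29 and 8.23 in spheres and 5.12, 5.38 and 5.04 in adherent cells. At 204298_s_at it read 4.61, 4.10 and 4.13 in xenografts, 6.44, 6.99 and 6.97 in spheres and 3.76, 3.54 and 3.46 in adherent cells. The sphere arrays were far above the rest at both, and no groups overlapped. Spheres were 7.24-fold over adherent cells at the first (adjusted p = 2.01e-06) and 9.25-fold at the second (95% interval 7.11 to 12.0, adjusted p = 2.64e-07). Xenografts were at 0.0664-fold (adjusted p = 1.78e-07) and 0.174-fold (adjusted p = 1.01e-06) of the sphere level. The xenograft means of 4.13 and 4.28, and the adherent mean of 3.59 at 204298_s_at, lie below the median brightness of 4.84, and no detection call was used, so folds against them are less certain in size than in direction.

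In xenografts against adherent cells these LOX probe sets were called in opposite directions, at low levels: at 204298_s_at both groups, and at 215446_s_at the xenografts, were below that median. The level was 0.481-fold at 215446_s_at (adjusted p = 0.00374) and 1.61-fold at 204298_s_at (adjusted p = 0.0141), the second of these calls being lost without adherent replicate 2 (0.0534) or 3 (0.0613). Averaged over the 3 LOX probe sets the log2 change was -0.05 (adjusted p = 0.801), so the data give no single direction for LOX in xenografts against adherent cells. The dim 213640_s_at rose by 1.32-fold in spheres over adherent cells (adjusted p = 0.0265), a call lost without sphere replicate 1 (0.0715) or 3 (0.0918) or adherent replicate 2 (0.0952) or 3 (0.113). LOX overlaps SRFBP1, whose probe set gave 0.28 in spheres (adjusted p = 0.206).

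LOX and TIMP3 were the members with the largest rises in spheres, so the 250 bases before their start sites are shown, from RefSeq on GRCh38.p14. For LOX the window is chr5:122078260-122078509 on the minus strand, the outermost of 3 listed starts. Its capitals mark ACGTG on the strand shown or, where it lies on the opposite strand, CACGT. These are the core letters of the hypoxia response element.
LOX: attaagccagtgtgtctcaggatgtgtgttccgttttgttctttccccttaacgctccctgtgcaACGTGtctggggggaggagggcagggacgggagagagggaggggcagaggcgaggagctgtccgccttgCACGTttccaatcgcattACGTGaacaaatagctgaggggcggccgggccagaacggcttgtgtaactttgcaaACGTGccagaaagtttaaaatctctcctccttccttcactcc
For TIMP3 the window is chr22:32801455-32801704 on the plus strand, and its capitals mark GGGCGG or, where it lies on the opposite strand, CCGCCC. These are the letters of the GC box.
TIMP3: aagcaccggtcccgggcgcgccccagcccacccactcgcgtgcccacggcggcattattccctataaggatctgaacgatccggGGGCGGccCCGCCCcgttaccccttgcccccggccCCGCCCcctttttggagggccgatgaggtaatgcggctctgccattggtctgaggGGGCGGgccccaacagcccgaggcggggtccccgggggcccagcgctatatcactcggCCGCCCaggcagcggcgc
The LOX window held ACGTG 4 times, starting 185, 116, 98 and 42 bases before the start site, and GGGCGG once, not capitalised, and no pair of its ACGTG matches overlapped. Of 35116 windows of the same length, 18.5% held ACGTG and 0.669% held it 4 or more times. The TIMP3 window held GGGCGG 5 times and no ACGTG, where 42.6% of all windows held GGGCGG and 4.15% held it 5 or more times. The TIMP3 window as printed does hold GCGTG, which was not counted in any window. Of the other members MMP14, MMP15 and TIMP1 had a window listed. MMP14 held 1 ACGTG and 1 GGGCGG, MMP15 held 5 GGGCGG and TIMP1 held 1 ACGTG and 2 GGGCGG. The AP-1 letters TGACTCA, which read TGAGTCA on the opposite strand and were present in 4.20% of all windows, were in 0 of the 5 windows. These matches describe letters only, and binding was not measured.

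The ACTB control probe sets, which compare the 3′ and 5′ ends of 1 transcript, bear on RNA integrity and moved with the spheres. The 3′ minus 5′ difference was 2.48 ± 0.23 log2 in xenografts, 3.20 ± 0.09 in spheres and 2.39 ± 0.30 in adherent cells (SD, n = 3 each). Spheres against adherent cells gave an exact two-sided permutation p of 0.1, the smallest that 3 against 3 arrays allow. For GAPDH it was 0.53 ± 0.11, 0.62 ± 0.05 and 0.54 ± 0.13 log2 in xenografts, spheres and adherent cells (SD, n = 3 each), with an exact permutation p of 0.5 for spheres against adherent cells. The part of RNA integrity in the sphere values of TIMP3, LOX and TIMP2 was not tested.

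LOXL2 (chr8:23296897-23404120), a LOX relative that cross-links collagen IV, fell in both xenografts and spheres. At 202998_s_at it read 6.19, 6.56 and 6.38 in xenografts, 6.99, 7.21 and 7.05 in spheres and 8.12, 8.28 and 8.28 in adherent cells. The 3 groups were fully separate, in rising order from xenografts through spheres to adherent cells. Xenografts were at 0.277-fold the adherent level (95% interval 0.233 to 0.329, adjusted p = 1.55e-06), spheres at 0.452-fold (0.381 to 0.537, adjusted p = 1.78e-05), and xenografts at 0.613-fold the sphere level (adjusted p = 4.79e-04). The other LOXL2 probe sets were dim and not called, though 202999_s_at, which gave 0.25 in xenografts against adherent cells (adjusted p = 0.0964) and 0.27 against spheres (adjusted p = 0.0511), passed both without xenograft replicate 1 (0.0387 and 0.0201). The probe set of its antisense neighbour LOXL2-AS1 gave -0.12 in spheres against adherent cells (adjusted p = 0.622).

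Genes whose levels ran most like a member over the 9 arrays were listed among 12683 genes, for the 3 members with the largest range of group means. LOX (215446_s_at) was matched most closely by TMEM87B (Pearson r = 0.996), NDRG1 (0.996) and CMTM4 (0.993). NDRG1 averaged 6.38 ± 0.16 in xenografts, 8.71 ± 0.38 in spheres and 6.99 ± 0.08 in adherent cells (SD, n = 3 each). LOXL2 was matched by the water channel AQP1 (0.995), MTUS1 (0.992) and LUZP2 (0.992), and AQP1 averaged 5.21 ± 0.28 in xenografts, 6.73 ± 0.33 in spheres and 8.83 ± 0.01 in adherent cells (SD, n = 3 each). TIMP3 was matched by ZNF570 (0.992), ABCB6 (0.991) and TRIB1 (0.990). These correlations rest on 9 arrays in 3 groups, so they chiefly restate the order of the group means.

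Around the 10 members, 72 of 74 other genes of 7 matrix lists were measured. In xenografts against adherent cells 9 rose and 15 fell (33.3% called), in spheres against adherent cells 7 rose and 8 fell (20.8%), and in xenografts against spheres 16 were higher and 16 lower (44.4%), where 26.9%, 29.8% and 44.0% of all genes were called in those comparisons. For each list below, the shares of all genes were 12.6% higher and 14.3% lower in xenografts, and 13.5% and 16.3% in spheres. Of 18 other MMPs, 2 rose and 0 fell in xenografts and 1 rose and 0 fell in spheres, both against adherent cells, with medians of 0.16 and -0.05, against 0.08 and -0.04 over all genes. MMP3, a stromelysin that cleaves many matrix proteins and activates other MMPs, read 7.77, 7.33 and 6.46 in xenografts, 5.54, 5.69 and 5.51 in spheres and 4.47, 4.42 and 4.75 in adherent cells. The groups did not overlap, and MMP3 was 6.24-fold over adherent cells in xenografts (adjusted p = 3.16e-05) and 2.05-fold in spheres (adjusted p = 0.00908).

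Of 17 other ADAMTS genes, 2 rose and 5 fell in xenografts and 0 rose and 3 fell in spheres, with medians of 0.06 and -0.13. The aggrecanase ADAMTS5 read 7.71, 9.12 and 8.54 in xenografts, 8.58, 8.58 and 8.59 in spheres and 10.70, 10.96 and 10.75 in adherent cells. It was at 0.196-fold of the adherent level in xenografts and 0.214-fold in spheres, with xenograft replicate 1 lowest. ADAMTS12 followed, at 0.373-fold and 0.343-fold. ADAMTS3, a procollagen protease, was at 0.493-fold in xenografts and gave 1.25-fold in spheres (adjusted p = 0.366). ADAMTS6 was at 0.439-fold in xenografts and gave 0.734-fold in spheres (adjusted p = 0.118). Of the 3 large proteoglycans that ADAMTS proteases cleave, 0 were called against adherent cells.

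Of 8 genes listed as inhibitors and cofactors of MMPs, 1 rose and 2 fell in xenografts and 1 rose and 0 fell in spheres. The medians were 0.17 and -0.03. The inhibitors TIMP4, RECK and A2M were not called against adherent cells. The one that rose was SERPINH1, a collagen chaperone, by 1.41-fold in xenografts and 1.43-fold in spheres. CAV1, the coat protein of caveolae, read 6.43, 6.26 and 5.87 in xenografts, 8.40, 8.60 and 8.58 in spheres and 8.67, 8.65 and 8.56 in adherent cells, at 0.184-fold in xenografts (adjusted p = 8.11e-07). THBS1, a matricellular protein, fell to 0.409-fold in xenografts (adjusted p = 9.60e-04) and gave 0.742-fold in spheres (adjusted p = 0.162). Of 9 activating proteases and enhancers, 0 were called in xenografts and 1 rose and 1 fell in spheres, with medians of 0.13 and 0.03. The one that rose was PCSK5, a proprotein convertase, by 1.42-fold (adjusted p = 0.0363). The one that fell was TLL2, a tolloid-like protease, at 0.371-fold (adjusted p = 2.37e-04).

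Of the 3 other lysyl oxidases, LOXL1, which acts on elastin, ran opposite to LOX in spheres. It read 8.02, 8.64 and 8.66 in xenografts, 6.60, 6.76 and 6.81 in spheres and 8.36, 8.48 and 8.53 in adherent cells. Spheres were lowest without overlap, at 0.301-fold of adherent cells (adjusted p = 8.00e-06), while xenografts gave 0.988-fold (adjusted p = 0.945). LOXL3 rose 1.48-fold in spheres (adjusted p = 0.00877) and LOXL4 rose 1.41-fold in xenografts (adjusted p = 0.00231), both against adherent cells.

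Of 14 lysyl oxidase substrates and matrix partners, 3 rose and 8 fell in xenografts, with a median of -0.61, and 3 rose and 3 fell in spheres, with a median of 0.09. Of all genes, 12.6% rose and 14.3% fell in xenografts and 13.5% and 16.3% in spheres, with medians of 0.08 and -0.04. The 3 that rose in xenografts were COL1A1, COL1A2 and COL3A1. With POSTN these are also 4 of the 11 fibroblast markers that were given above, so they are no separate evidence. COL1A2 was 2.46-fold over adherent cells in xenografts (adjusted p = 4.04e-04) and 0.669-fold in spheres (adjusted p = 0.0337). Basement membrane collagen IV fell in xenografts, COL4A2 to 0.488-fold (adjusted p = 1.48e-05) and COL4A1 to 0.510-fold (adjusted p = 7.21e-05). FBLN5, which tethers LOXL1 to elastic fibres, was at 0.324-fold in xenografts (adjusted p = 1.88e-05) and 0.489-fold in spheres (adjusted p = 2.12e-04). COL5A1 was at 0.400-fold in xenografts (adjusted p = 3.50e-05) and gave 0.826-fold in spheres (adjusted p = 0.150).

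COL6A1, a microfibrillar collagen chain, read 6.16, 6.12 and 6.31 in xenografts, 8.53, 8.57 and 8.59 in spheres and 6.84, 6.84 and 6.83 in adherent cells. It rose 3.30-fold in spheres (adjusted p = 1.59e-07) and fell to 0.642-fold in xenografts (adjusted p = 3.43e-04), both against adherent cells. EFEMP2, an elastic fibre protein that binds LOX, read 5.58, 6.70 and 6.96 in xenografts, against 7.49, 7.51 and 7.56 in adherent cells, at 0.465-fold (adjusted p = 0.0109), with xenograft replicate 1 again lowest.

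**Figure D4:**
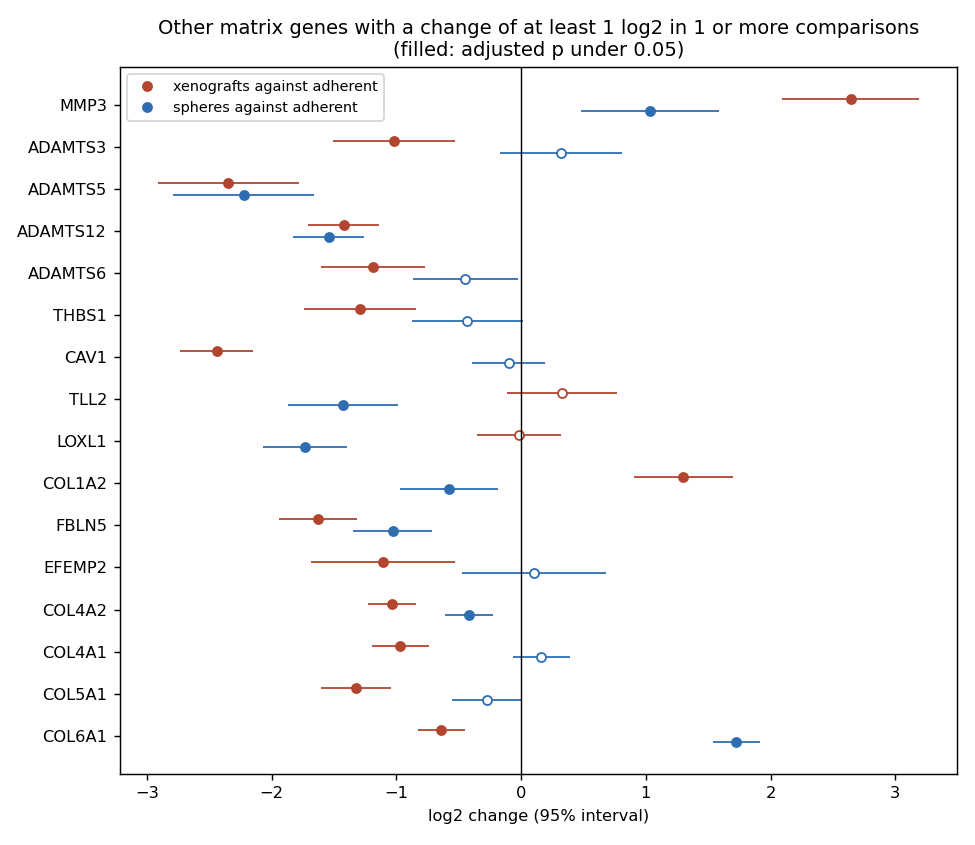
Log2 change with its 95% interval (x axis) of 16 other matrix genes, for xenografts against adherent cells (red) and spheres against adherent cells (blue), filled where the adjusted p was under 0.05. The genes are those called with a change of at least 1 log2 unit in any comparison. MMP3 rose in both, ADAMTS5, ADAMTS12, FBLN5 and COL4A2 fell in both, and COL1A2 and COL6A1 were called in opposite directions.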

How the data were processed

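Total RNA from 9 samples was hybridised to Affymetrix U133 Plus 2.0 arrays, and the authors' normalization was RMA over all arrays. The deposited values are log2 values per probe set, and the RMA version is not given in the sources used here. After 62 control probe sets were set aside, 54613 entered 1 linear model with a mean per group (limma 3.58.1 under R 4.3.3, empirical Bayes variances, 6 residual degrees of freedom). P-values were two-sided and adjusted by Benjamini-Hochberg over all 54613. Symbols came from the array annotation (41091 probe sets with 1 symbol, 1801 with several, 11721 with none), and a gene's brightest probe set had the highest mean over 9 arrays.

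The members and lists were chosen with earlier results of these data known. All members were named, and other matrix genes were named where called with a log2 change of at least 1 in any comparison. A few further genes of small counts (COL1A1, COL3A1, LOXL3, LOXL4, SERPINH1, PCSK5, POSTN, LUM and ACTA1) were named after their values were seen. The remaining markers of fibroblasts and of adult skeletal muscle were then named as well. For the 3 members with the largest range of group means, the 3 genes of highest Pearson r were named. Levels were not compared between probe sets. The fit was tested on simulated data. Gene positions and the 5 promoter windows found for the 10 members came from RefSeq on GRCh38.p14, searched on both strands over 250 bases. Array medians ran from 4.78 to 4.87, and correlations within groups from 0.990 to 0.998. Array numbers limit the precision. Alternatives covered normalization, dim probe sets, probe sets with an s, x or a suffix, and pair-only fits. They also covered a variance trend, the methods' t-test, the replicate block and each array left out.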

Additional observations from a re-analysis of the deposited data

How the results depend on the processing

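The member counts were recomputed under each alternative. With the methods' t-test and Benjamini-Hochberg adjustment, the called probe sets numbered 6 in xenografts against adherent cells and 9 in xenografts against spheres, in place of 11 and 14. A further alternative kept only probe sets without an s, x or a suffix, which are 11 of the 31. The called probe sets then numbered 3 in xenografts against adherent cells, 3 in spheres against adherent cells and 2 in xenografts against spheres. Every probe set of ADAMTS1, TIMP3, LOX and LOXL2, and the brightest of TIMP2, carries the s suffix. Their calls were thus left out of these counts, not retested. Leaving out 1 array at a time gave 9 to 13, 10 to 16 and 12 to 15 in the same order. With quantile normalization the counts were 12, 15 and 17, and with median centring 13, 15 and 15.

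The replicate number as a block gave 13, 15 and 13 called probe sets. The numbers did not pair the arrays: over 9 same-number pairs the correlation of deviations ran from -0.18 to 0.18, with 2 over 0.1, and 2 of 9 arrays were best matched by their own number.

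At the 10 brightest probe sets in 3 comparisons, 540 values over 30 results gave 28 lost calls and 25 gained calls. None of the 17 called results changed sign, and 11 of them kept sign and call in every alternative. In many alternatives the estimate itself cannot move, so the sign was fixed there and only the call could change. These are the brighter probe sets alone, pair-only fits, the variance trend, the t-tests, the replicate block and arrays left out of the group not compared. Of the 13 others, 5 took the opposite sign in 9 values, none of them called: TIMP1 in xenografts against adherent cells (up to 0.13) and against spheres (0.05), MMP2 (up to 0.02) and MMP15 (up to 0.09) in spheres against adherent cells, and TIMP2 in xenografts against spheres (up to 0.07). The call of MMP14 in xenografts against adherent cells was lost with quantile normalization (adjusted p = 0.226). The sphere rise of MMP16 was lost with median centring (adjusted p = 0.0749) and with the replicate block (adjusted p = 0.0644). The causes were not tested.

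With 3 arrays per group the intervals of MMP2 and TIMP1 leave room for moderate changes. These intervals pool the spread of all groups, and the xenograft arrays spread most, with an SD of 1.08 for MMP2 and 0.39 for TIMP1. In spheres and adherent cells the SD was 0.07 and 0.12 for MMP2, and 0.11 and 0.08 for TIMP1. The intervals for spheres against adherent cells are thus widened by the xenograft arrays. Dim probe sets limit what can be said of MMP2, MMP16 and LOXL2 beyond their brighter probe sets.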
